A study of Mus musculus with 9 samples.

Results

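The 50 genes described here build the mitotic spindle, condense and segregate the chromosomes, and drive a cell into and out of mitosis. They were named as a list and not picked by a cutoff on their values, but earlier results of these data were known at the time. All 50 were found by symbol among the 25160 genes of the table. They were followed in 9 RNA-seq libraries of mouse CD4+ T cells, 3 in each of 3 groups. Of the 50, 33 passed the expression filter and were tested, and the other 17 were left out by it.

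At the entry into mitosis, cyclin B binds the kinase Cdk1, and Cdc25 phosphatases switch the pair on. Condensin then compacts the chromosomes, kinetochores assemble on centromeres that carry the histone variant Cenpa, and a checkpoint holds the cell until each chromosome is attached. The anaphase-promoting complex with Cdc20 next marks securin and cyclin B for destruction, which frees separase to part the sister chromatids. Most genes of this programme are known to be nearly silent in resting T cells and to be transcribed late in the cell cycle once the T cell receptor has been triggered.

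The cells were naive CD4+ T cells from spleens of C57BL/6 mice, collected with a cell sorter and kept in wells coated with anti-CD3e at 1 µg/ml, which engages a chain of the T cell receptor complex. Wild-type cells on 19 µg/ml of anti-CD40L formed the first group. The second, labelled KO, held cells of mice described as lacking CD40L in T cells only, on 19 µg/ml of isotype antibody, and the third held wild-type cells on that isotype antibody. CD40L is the ligand through which activated CD4+ T cells engage CD40 on other cells. All 3 groups therefore received the CD3e antibody, and no unstimulated group was analysed here. The sources used here do not give the Cre driver behind the KO label, the length of the culture or the number of animals. Since no label ties the libraries of a group to different animals or cultures, the p-values below measure only the spread between these libraries.

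Total counts ran from 5316482 to 15565711 per library. Anti-CD40L replicate 3 had the smallest total, had a count for 11673 genes where the others had 14290 to 17428, and lay at 86.96 on the first principal component against -19.1 to 10.22 for the others. The CD4 T cell markers Cd4, Cd3e, Cd3d, Cd3g, Lck, Cd28 and Cd5 were present in every library, with a summed level of 4011 to 4163 CPM on anti-CD40L, 3892 to 4171 CPM in KO-labelled libraries and 3964 to 4404 CPM in wild-type isotype. CPM is the usual count scaled to library size, here with library sizes adjusted by the TMM method. Cd40lg, the targeted gene, averaged 144 ± 7.13 CPM in KO-labelled libraries and 161 ± 24.5 CPM in wild-type isotype (SD, n = 3 each), a log2 fold change of -0.17 with a standard error (SE) of 0.13 (quasi-likelihood F test of edgeR, here QL test, with Benjamini-Hochberg, here BH, adjustment over all tested genes, adjusted p = 0.935). The deposited counts cover whole transcripts and the deleted part is not given, so the level is no test of the deletion. Directions for KO-labelled libraries rest on that label.

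Late cell cycle genes are known for a shared promoter layout: CCAAT boxes, which the factor NF-Y binds, and a cell cycle genes homology region near the start, which complexes of the MuvB core bind. RefSeq promoters of assembly GRCm38.p6, from 250 bases before to 50 bases after the start of a transcript, were held for 41 of the 50 genes. Aurkb, Tpx2, Spc24, Ccna2, Foxm1, Cdc25c, Kif20a, Incenp and Smc4 had no entry. Each was searched on both strands for CCAAT and for TTTGAA and TTCGAA, the common forms of the homology region. TTCGAA reads the same on both strands, and matches of different motifs were counted independently of one another. A match is a description of the letters and not a binding site.

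CCAAT occurred in 31 of the 41 promoters (75.6%), against 41.1% of the 27025 genes in the promoter table. TTTGAA or TTCGAA occurred in 31 of the 41 (75.6%), against 21.7% of all genes. Both kinds of motif stood together in 28 of the 41 (68.3%), against 9.65% of all genes. The homology region clustered at the start: 28 of the 41 (68.3%) had a match whose first base lay within 50 bases of it, against 6.12% of all genes, a window chosen after the positions were seen. The 103 promoters held for other mitosis genes lay between: 25.2% had such a match near the start, 39.8% had TTTGAA or TTCGAA anywhere, 55.3% had CCAAT and 23.3% had both kinds. In 42 DNA replication genes listed for comparison, 34 had a promoter entry, and 5.88% of these held such a match near the start although 64.7% held CCAAT. Over the whole promoter, TTTGAA or TTCGAA occurred in 20.6% of these replication promoters.

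The promoters of 6 genes are printed below because their genes carry the results or show the layout with several matches or with none. Top2a, Ube2c and Hmmr, which are not printed, hold more matches than any of these. Each runs 5′ to 3′ on the strand of its gene, from 150 bases before to 30 bases from the start, in GRCm38.p6 coordinates, with matches in capitals.
Cdc25b, chr2:131186798-131186977, plus strand: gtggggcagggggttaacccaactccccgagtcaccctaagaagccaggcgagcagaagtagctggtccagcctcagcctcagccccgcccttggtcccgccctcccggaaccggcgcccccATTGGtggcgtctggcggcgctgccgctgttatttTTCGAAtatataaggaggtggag
Cenpa, chr5:30666736-30666915, plus strand: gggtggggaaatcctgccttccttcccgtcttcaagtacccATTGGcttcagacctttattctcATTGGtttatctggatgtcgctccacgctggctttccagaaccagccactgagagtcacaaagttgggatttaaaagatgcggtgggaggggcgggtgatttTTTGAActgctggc
Smc2, chr4:52439071-52439250, plus strand: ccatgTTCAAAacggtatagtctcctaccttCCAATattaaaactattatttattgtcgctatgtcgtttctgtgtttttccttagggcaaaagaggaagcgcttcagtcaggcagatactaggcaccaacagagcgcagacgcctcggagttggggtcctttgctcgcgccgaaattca
Ccnb2, chr9:70421525-70421704, minus strand: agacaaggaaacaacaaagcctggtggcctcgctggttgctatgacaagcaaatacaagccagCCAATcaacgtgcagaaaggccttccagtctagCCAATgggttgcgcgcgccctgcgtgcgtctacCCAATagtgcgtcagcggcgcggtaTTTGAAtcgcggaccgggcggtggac
Cdc20, chr4:118437314-118437493, minus strand: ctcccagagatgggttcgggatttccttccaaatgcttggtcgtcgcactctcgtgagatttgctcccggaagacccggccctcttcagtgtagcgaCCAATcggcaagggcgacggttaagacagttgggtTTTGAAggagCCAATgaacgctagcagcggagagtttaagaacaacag
Plk4, chr3:40799801-40799980, plus strand: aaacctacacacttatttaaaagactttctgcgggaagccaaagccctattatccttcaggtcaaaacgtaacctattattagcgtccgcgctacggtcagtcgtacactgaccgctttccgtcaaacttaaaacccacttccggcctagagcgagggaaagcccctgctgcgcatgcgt
Ccnb2, which encodes a B-type cyclin, has 3 CCAAT matches at positions -87, -54 and -21 from the start, and a TTTGAA match at 4. A further TTTGAA match of Ccnb2, at -167, lies before the printed stretch. Cdc25b has 1 CCAAT on the opposite strand at -28 and TTCGAA at 7. Cenpa has 2 CCAAT matches on the opposite strand at -109 and -86, and TTTGAA at 16. Cdc20, by contrast, has TTTGAA at -18 between CCAAT matches at -53 and -8. The Smc2 stretch holds a TTTGAA match on the opposite strand at -145 and CCAAT at -119, and a further TTTGAA match at 26 runs past its end. Plk4 has no match, and neither did Nuf2, Nusap1, Ncaph, Mad2l1, Pttg1 and Birc5, which makes 7 of the 41.

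**Figure D1:**
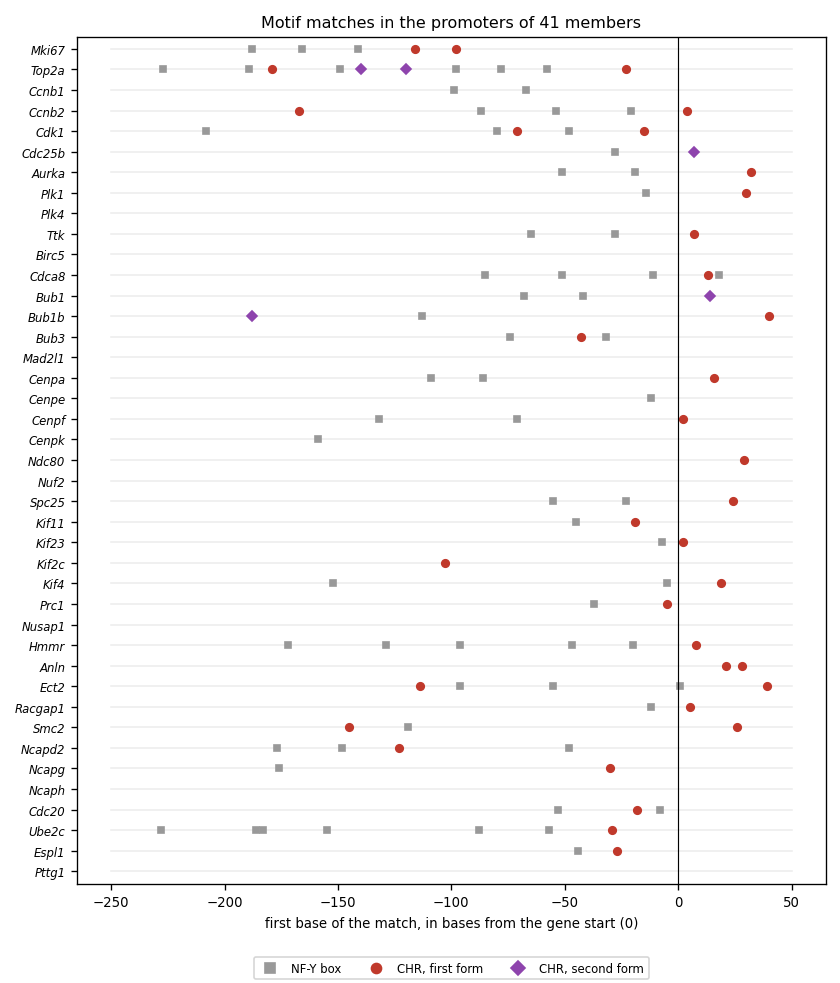
Motif matches in the promoters of the 41 mitotic genes with an entry, 1 line per gene. The horizontal axis is the first base of each match in bases from the gene start; grey squares are CCAAT (the NF-Y box), red circles TTTGAA and purple diamonds TTCGAA (the cell cycle homology region, CHR). In 28 of the 41 genes a circle or diamond lies within 50 bases of the start, while the squares lie mainly before it.

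Most of the 50 genes were scarce in all 9 libraries. Their mean over the 9 libraries was under 1 CPM for 18 genes, from 1 to 10 CPM for 20, and at least 10 CPM for 12. Smc4, an ATPase subunit of condensin (chromosome 3, 69004738 to 69034623), averaged 443 CPM, and Bub3, a checkpoint protein (chromosome 7, 131560367 to 131571895), averaged 143 CPM. These 2 genes held 67.2% of the summed CPM of the 50. Bub3 and Smc4 are known to act outside mitosis as well, in messenger RNA splicing for Bub3 and in interphase chromatin for condensin.

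Levels were compared between genes only as CPM per kb of transcript, for the 48 genes with a length. The median of these was 0.82 CPM per kb, with a range of 0.0327 (Cenpf) to 103 CPM per kb (Smc4). A list of 123 other mitosis genes had a median of 7.0 CPM per kb over the 115 with a length. Within it the median was 24.95 CPM per kb for subunits and partners of the anaphase-promoting complex and 30.2 CPM per kb for cohesin, which holds sister chromatids together from DNA replication onwards. Other parts of it were low as well. The median was 1.88 CPM per kb for the inner kinetochore and 2.08 for outer kinetochore and checkpoint partners. Other mitotic motors and spindle factors had 3.33, centrosome duplication 3.76, entry and exit regulators 6.14, and condensin II with chromosome compaction 10.7 CPM per kb. DNA replication genes had a median of 11.9 CPM per kb (39 genes) and G1 cyclins, kinases and inhibitors 9.51 CPM per kb (19 genes). By role, the motors and spindle proteins stood lowest at a median of 0.23 CPM per kb and condensin highest at 5.04 CPM per kb.

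**Figure D2:**
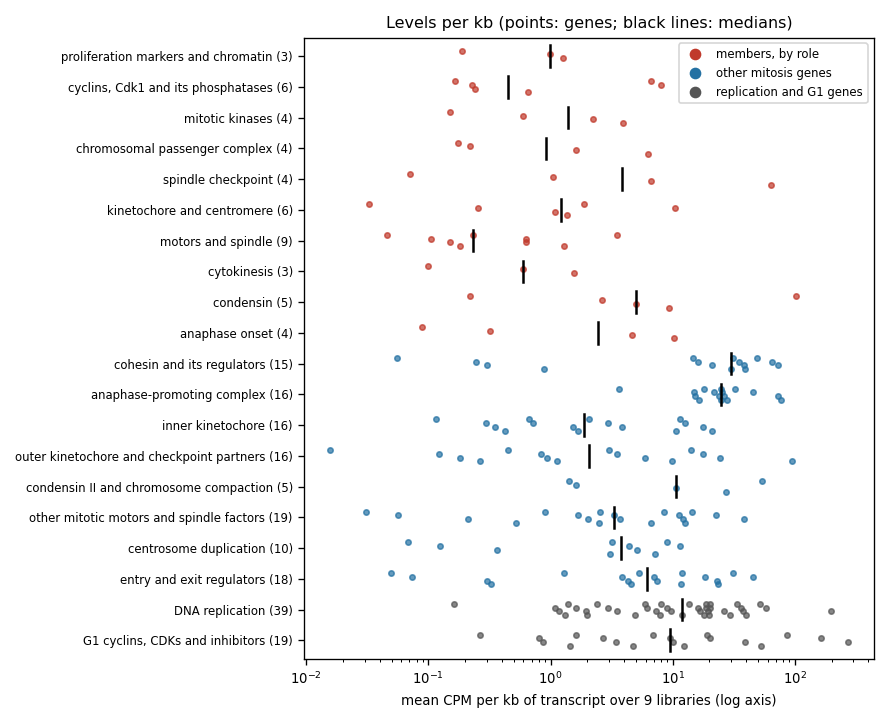
Mean CPM per kb of transcript over the 9 libraries, on a log axis, for each gene (point) of each list, with the number of genes that have a length in brackets. Black lines are medians: the roles of the 50 mitotic genes run from 0.23 to 5.04 CPM per kb, below the cohesin and anaphase-promoting complex genes at 30.2 and 24.95 and the replication genes at 11.9. The other mitosis lists for inner kinetochore (1.88), outer kinetochore (2.08), motors and spindle factors (3.33) and centrosome duplication (3.76) lie within the range of the roles.

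Each level here is that of a single RefSeq transcript row, the row of highest total, and counts on other rows of the gene are left out. Several rows were present for 25 of the listed genes, among them Cdc25b, Cenpa, Smc2, Smc4, Incenp, Birc5, Bub1 and Bub3. The effect of the omitted rows on the levels was not tested. On this basis the levels per kb were uneven within protein complexes. In condensin, Smc4 had 103, Smc2 9.33, Ncapd2 5.04, Ncaph 2.64 and Ncapg 0.22 CPM per kb, although these proteins work as one assembly. The chromosomal passenger complex corrects faulty chromosome attachments. Its scaffold Incenp had 6.22 CPM per kb, its targeting subunits Cdca8 1.62 and Birc5 0.22, and its kinase Aurkb 0.17. Among checkpoint genes Bub3 had 64.3, Mad2l1 6.63, Bub1b 1.05 and the kinase Bub1 0.07 CPM per kb. For the Cdk1 module, Cdc25b had 8.04 and Ccna2 6.64 CPM per kb, while Ccnb2 had 0.65, Cdc25c 0.24, Ccnb1 0.23 and Cdk1 itself 0.17.

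Some of these levels may include reads of a neighbour. The use of strand in counting is not given, and 21 of the 50 genes share bases with another annotated gene. Ccna2 overlaps Exosc9, Kif20a overlaps Brd8 and Cdc23, Aurka overlaps Cstf1, Cdc20 overlaps Elovl1 and Foxm1 overlaps Tex52. Smc4 holds the microRNA genes Mir15b and Mir16-2, and Smc2 overlaps the pseudogene Tmc4-ps. Cdc25b, Cenpa, Ndc80, Plk4 and Bub1b overlap no other gene of the annotation.

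**Figure D3:**
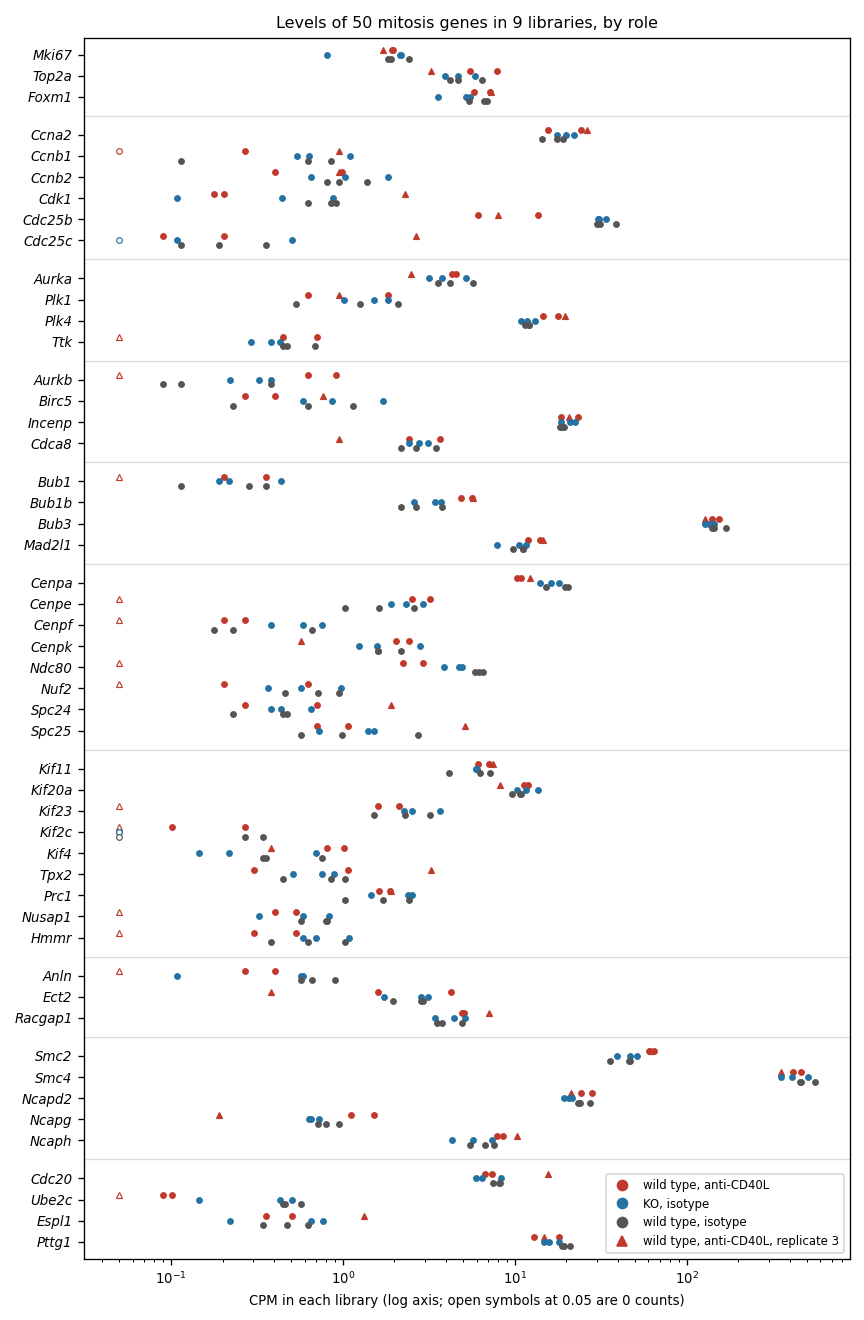
CPM of each of the 50 genes in each of the 9 libraries, on a log axis, grouped by role; within a gene the anti-CD40L libraries are drawn uppermost, then the KO-labelled libraries, then wild-type isotype. Open symbols at the left edge are libraries with 0 counts. Smc4 and Bub3 lie above 100 CPM throughout, and anti-CD40L replicate 3 (triangles) has 13 genes at 0.

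The 17 untested genes averaged 0.109 to 0.734 CPM and reached at most 27 counts in a library. They were Ccnb1, Cdk1, Cdc25c, Ttk, Aurkb, Birc5, Bub1, Cenpf, Nuf2, Spc24, Kif2c, Kif4, Nusap1, Hmmr, Anln, Ube2c and Espl1. At the edge of the filter, Birc5 averaged 0.734 CPM and was left out, while Ncapg averaged 0.813 CPM and was kept. Their summed level was 6.27 to 10.3 CPM on anti-CD40L, 7.17 to 9.67 CPM in KO-labelled libraries and 7.11 to 9.69 CPM in wild-type isotype, so the groups overlapped. The filter left these genes out of the main fit.

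Counts of the untested genes changed from library to library. Cdk1, the kinase of mitotic entry, had 2, 2 and 12 counts on anti-CD40L, 1, 12 and 7 in KO-labelled libraries and 7, 9 and 8 in wild-type isotype. Its partner Ccnb1 had 3, 0 and 5 counts on anti-CD40L, 5, 15 and 10 in KO-labelled libraries and 7, 9 and 1 in wild-type isotype. Neither gene separated the groups. Aurkb, the kinase of the passenger complex, had 7, 9 and 0 counts on anti-CD40L, 3, 3 and 6 in KO-labelled libraries and 1, 4 and 1 in wild-type isotype. Birc5, better known as survivin, had 3, 4 and 4 counts on anti-CD40L, 8, 8 and 27 in KO-labelled libraries and 7, 12 and 2 in wild-type isotype. In each of these genes 1 library held a large share of a group's counts or had none.

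Other untested genes were as sparse. The checkpoint kinase Bub1 had 4, 2 and 0 counts on anti-CD40L, 2, 6 and 3 in KO-labelled libraries and 4, 3 and 1 in wild-type isotype. Anln, which encodes the actin-binding anillin of the cleavage furrow, had 3, 4 and 0 counts on anti-CD40L, 1, 8 and 9 in KO-labelled libraries and 10, 7 and 5 in wild-type isotype. Ube2c, the ubiquitin-conjugating partner of the anaphase-promoting complex, had 1, 1 and 0 counts on anti-CD40L, 4, 2 and 8 in KO-labelled libraries and 5, 6 and 4 in wild-type isotype. Its 2 counts against 15 gave a ratio of anti-CD40L to wild-type isotype of 0.154 after scaling, with an exact 95% interval of 0.0171 to 0.664 that covers counting error only. In the same comparison Anln had a ratio of 0.369 (0.133 to 0.893), while Aurkb had one of 3.09 (1.15 to 9.64) and Cdc25c one of 2.81 (1.11 to 8.02). In that comparison the ratios of the other 13 genes had intervals that include 1. For anti-CD40L against the KO-labelled libraries the interval lay below 1 for Ccnb1 (0.155 to 0.876), Birc5 (0.175 to 0.742) and Cenpf (0.103 to 0.955). The same held for Hmmr (0.19 to 0.991) and Ube2c (0.0232 to 0.915). The interval lay above 1 there for Cdc25c (1.17 to 7.08) and Kif4 (1.01 to 4.3). For KO-labelled against wild-type isotype libraries only Kif2c had an interval without 1 (0 to 0.669). No interval was adjusted for the number of genes. Of the 17 counts of Cdc25c on anti-CD40L, 14 came from replicate 3. Kif2c, a motor that takes microtubules apart, had 0 counts in each KO-labelled library and at most 3 in any other library.

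Anti-CD40L replicate 3 stood apart for these genes as it did on the first principal component. It had 0 counts for 13 of the 50 genes, while the other libraries had 0 for none to 2. It was the highest of the 9 libraries for 15 of the 50 genes and the lowest, ties included, for 22, against 3 to 6 and 1 to 7 in the other libraries. Cdc20, the activator of the anaphase-promoting complex, was at 15.7 CPM there and at 5.96 to 8.27 CPM in the other 8. Spc25, an outer kinetochore subunit, was at 5.16 CPM there and at most 2.76 CPM elsewhere, and Cdc25c had 14 counts there and at most 8 elsewhere. Fold changes on anti-CD40L against wild-type isotype without it are given below for the named genes in which it was the extreme library.

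The first comparison asked what binding CD40L with an antibody changed in wild-type cells. Of the 33 tested genes, 1 rose and 2 fell on anti-CD40L against wild-type isotype. Among all 11256 tested genes 2.91% rose and 6.46% fell, so the share of called genes in the list, 9.09%, lay near the 9.37% of all genes. The phosphatase gene Cdc25b and the centromere histone gene Cenpa fell, and the condensin gene Smc2 rose. Widely used markers of dividing cells, Mki67, Top2a, Ccnb2, Plk1 and Aurka, did not pass the test. Without anti-CD40L replicate 3 the filter kept 36 of the 50 genes, and 4 were called, the same 3 and Ndc80. That fit called 989 genes in all, against 1055 over the 9 libraries.

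**Figure D4:**
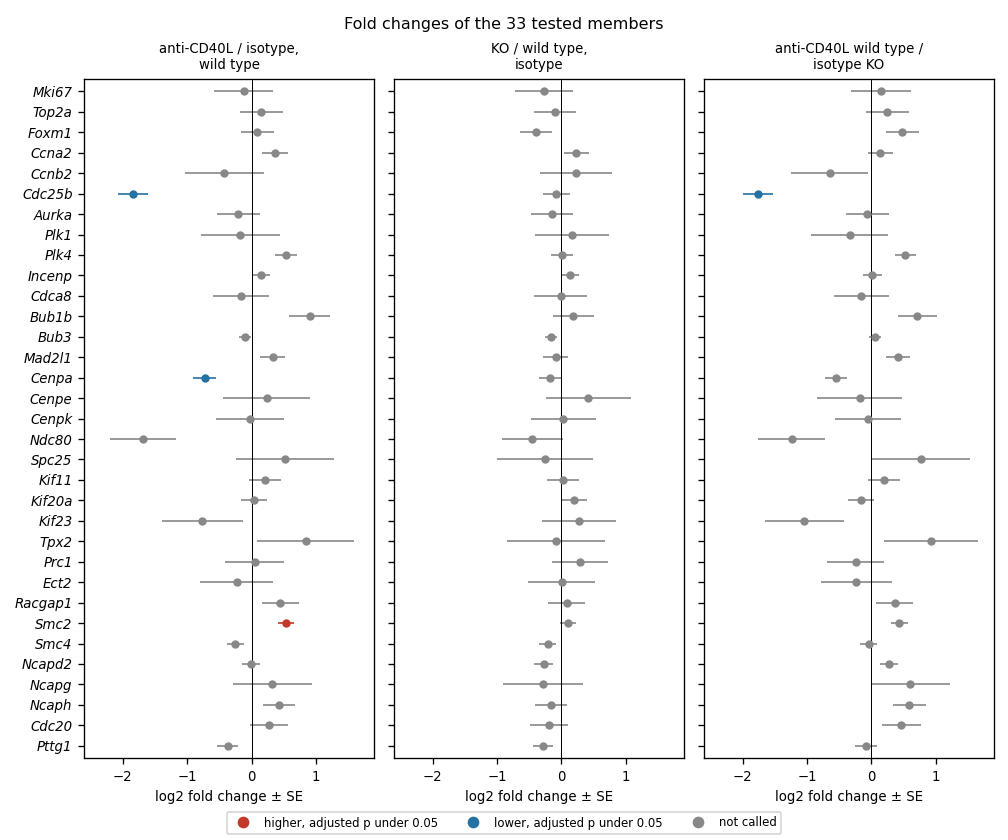
Log2 fold change ± SE of the 33 tested genes in the 3 comparisons, from the QL fit of edgeR over 9 libraries (horizontal axes; 0 is no difference). Blue points passed an adjusted p of 0.05 as lower and red as higher: Cdc25b, Cenpa and Smc2 in the left panel, none in the middle and Cdc25b in the right one.

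Cdc25b (chromosome 2, 131186436 to 131198511) encodes a phosphatase that starts the activation of Cdk1 before mitosis. It was at 6.09, 13.7 and 8.03 CPM on anti-CD40L, against 39.0, 31.5 and 30.2 CPM in wild-type isotype. All 3 anti-CD40L libraries lay far below all 6 isotype libraries, since the KO-labelled libraries were at 30.6, 33.8 and 30.7 CPM. The mean was 9.27 ± 3.95 CPM on anti-CD40L and 33.6 ± 4.74 CPM in wild-type isotype (SD, n = 3 each). This was 3.60-fold lower on anti-CD40L, a log2 fold change of -1.85 (SE 0.23; QL test of edgeR, BH-adjusted p = 0.000354). The call held in all 15 alternative settings, with log2 fold changes of -2.29 to -1.58. The other phosphatase of the list, Cdc25c, was untested, with 1, 2 and 14 counts on anti-CD40L, 1, 0 and 8 in KO-labelled libraries and 4, 2 and 1 in wild-type isotype.

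Cenpa (chromosome 5, 30666877 to 30674837) encodes the histone H3 variant on which centromeres are built. It was at 10.8, 10.3 and 12.2 CPM on anti-CD40L, against 15.2, 19.6 and 20.4 CPM in wild-type isotype. The groups did not overlap, and the anti-CD40L libraries were also the more uniform. The log2 fold change was -0.73 (SE 0.18; QL test of edgeR, BH-adjusted p = 0.0214). The call was lost in 4 of the 15 alternatives, each without 1 library. The adjusted p was 0.0773 with anti-CD40L replicate 1 left out, 0.055 with anti-CD40L replicate 2 left out, 0.0853 with wild-type isotype replicate 2 left out and 0.0921 with wild-type isotype replicate 3 left out (same test; range over the alternatives 0.00384 to 0.0921).

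Smc2 (chromosome 4, 52439221 to 52488365) encodes an ATPase subunit of condensin, the partner of Smc4. It was at 64.4, 60.0 and 62.5 CPM on anti-CD40L, against 46.2, 35.9 and 46.8 CPM in wild-type isotype. Every anti-CD40L library lay above every isotype library of either genotype. The log2 fold change was 0.54 (SE 0.13; QL test of edgeR, BH-adjusted p = 0.0204). The adjusted p was 0.0726 without anti-CD40L replicate 1 and 0.0899 without wild-type isotype replicate 2 (same test; range over the alternatives 0.00102 to 0.0899), and the other 13 alternatives kept the call.

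The remaining condensin genes did not pass. Smc4 was at 465, 414 and 355 CPM on anti-CD40L, against 557, 456 and 463 CPM in wild-type isotype, so the groups overlapped. Its log2 fold change was -0.26 (SE 0.13; QL test of edgeR, BH-adjusted p = 0.243), opposite in sign to that of Smc2. Ncaph, the subunit that bridges the 2 ATPase heads, averaged 8.91 ± 1.25 CPM on anti-CD40L and 6.60 ± 1.04 CPM in wild-type isotype, without overlap, and was not called (adjusted p = 0.304, same test). Ncapd2 had a log2 fold change of -0.01 and Ncapg one of 0.32, both with overlapping groups.

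Ndc80 (chromosome 17, 71496100 to 71526857) encodes the kinetochore subunit that grips the microtubule, and it had the most negative log2 fold change after Cdc25b. It was at 2.24, 2.94 and 0 CPM on anti-CD40L, against 6.18, 6.56 and 5.85 CPM in wild-type isotype. All anti-CD40L libraries lay below all isotype libraries, also those labelled KO. With all libraries the log2 fold change was -1.69 (SE 0.52) and missed the threshold (QL test of edgeR, BH-adjusted p = 0.0574). Without anti-CD40L replicate 3, the library at 0, it was -1.25 with an adjusted p of 0.011 (same test; range over the alternatives 0.000248 to 0.156). DESeq2, limma-voom and the fit without an expression filter also called it. Of its partners in the same complex, Nuf2 and Spc24 were untested. Nuf2 had 9 counts over the anti-CD40L libraries and 22 over wild-type isotype, and Spc24 went the other way with 20 over the anti-CD40L libraries and 12 over wild-type isotype. Spc25 had a log2 fold change of 0.52 (SE 0.76) with all libraries and -0.68 (SE 0.65) without anti-CD40L replicate 3.

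Plk4 (chromosome 3, 40799951 to 40816883), the kinase that starts centriole duplication, was at 17.8, 14.6 and 19.7 CPM on anti-CD40L, against 11.6, 12.1 and 12.2 CPM in wild-type isotype. Bub1b (chromosome 2, 118598202 to 118641592), the checkpoint protein BubR1, was at 5.65, 4.87 and 5.73 CPM on anti-CD40L, against 3.76, 2.66 and 2.18 CPM in wild-type isotype. In both genes every anti-CD40L library lay above every isotype library of either genotype, by less than the test required. The log2 fold change was 0.53 for Plk4 (SE 0.17; QL test of edgeR, BH-adjusted p = 0.0652) and 0.90 for Bub1b (SE 0.31; same test, adjusted p = 0.0885). Over the alternatives the adjusted p of Plk4 ran from 0.0392 to 0.17, with 2 calls, and that of Bub1b from 0.0553 to 0.257, with none.

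**Figure D5:**
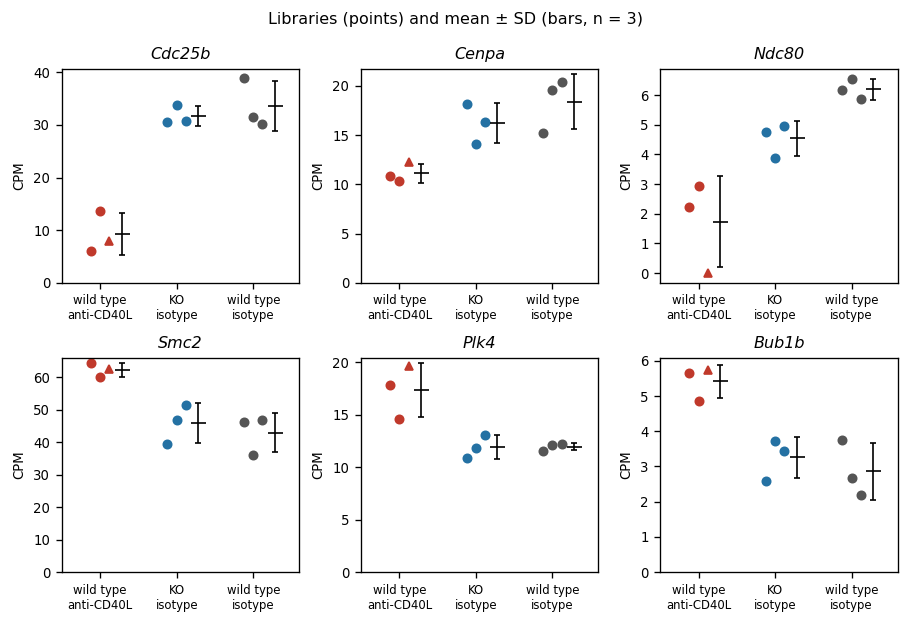
CPM of 6 genes in each library (points; the triangle is anti-CD40L replicate 3) with mean ± SD (bars, n = 3), anti-CD40L to the left, then KO, then wild-type isotype. Cdc25b, Cenpa and Ndc80 lie lower in all 3 anti-CD40L libraries than in all 6 isotype libraries, and Smc2, Plk4 and Bub1b lie higher.

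Counted without a test, 6 of the 33 genes had all anti-CD40L libraries above all wild-type isotype libraries, namely Plk4, Bub1b, Mad2l1, Racgap1, Smc2 and Ncaph. This was 18.2% of them, and 15.4% of all tested genes did so. Cdc25b, Cenpa, Ndc80 and Pttg1 lay wholly below, 12.1% against 17.2% of all tested genes. An unadjusted p under 0.05 was reached by 7 of the 33 (21.2%), against 26.4% of all tested genes. The median log2 fold change of the 33 was 0.05 and that of all tested genes -0.01. Leaving out single libraries moved the median of the 33 between -0.05 and 0.13, so its sign was not stable.

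Genes at the core of the programme had overlapping ranges. Mki67, the gene of the proliferation antigen Ki-67, was at 1.97, 1.93 and 1.72 CPM on anti-CD40L, against 2.42, 1.9 and 1.84 CPM in wild-type isotype. Top2a, the topoisomerase that untangles sister chromatids, was at 7.89, 5.48 and 3.25 CPM on anti-CD40L, against 6.45, 4.18 and 4.70 CPM in wild-type isotype. Foxm1, a transcription factor of mitotic genes, averaged 6.74 ± 0.829 CPM on anti-CD40L and 6.31 ± 0.784 CPM in wild-type isotype (SD, n = 3 each). Their log2 fold changes of -0.12, 0.15 and 0.09 had SEs of 0.46, 0.33 and 0.25.

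Kinases and cyclins were not called either. Plk1, the polo kinase of mitotic entry, averaged 1.14 ± 0.619 CPM on anti-CD40L and 1.30 ± 0.777 CPM in wild-type isotype, and its log2 fold change of -0.17 had an SE of 0.61. Aurka, the kinase of the spindle poles, had a log2 fold change of -0.21 (SE 0.34). Ccna2, cyclin A, was at 24.5, 15.6 and 26.4 CPM on anti-CD40L, against 17.7, 14.4 and 19.0 CPM in wild-type isotype, and the ranges overlapped (log2 fold change 0.37, SE 0.20; QL test of edgeR, BH-adjusted p = 0.259). Ccnb2 was near 1 CPM, and its log2 fold change of -0.42 had an SE of 0.62.

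In the checkpoint, Mad2l1, which blocks Cdc20 at unattached kinetochores, was at 12, 14.1 and 14.5 CPM on anti-CD40L, against 11.2, 9.79 and 11.2 CPM in wild-type isotype. These groups did not overlap, yet the difference was not called (log2 fold change 0.33, SE 0.19; QL test of edgeR, BH-adjusted p = 0.296). Bub3 was at 141, 155 and 127 CPM on anti-CD40L, against 145, 169 and 141 CPM in wild-type isotype. Its log2 fold change of -0.10 had an SE of 0.10. Pttg1, securin, was at 12.9, 18.2 and 14.7 CPM on anti-CD40L, against 18.9, 21.1 and 19.3 CPM in wild-type isotype, a log2 fold change of -0.37 (SE 0.17; same test, adjusted p = 0.173). Cdc20 had a log2 fold change of 0.27 (SE 0.30) with all libraries and -0.17 (SE 0.20) without anti-CD40L replicate 3.

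Spindle motors and cytokinesis genes were not called. Kif11, the motor that pushes the spindle poles apart, was at 7.08, 6.09 and 7.45 CPM on anti-CD40L, against 6.27, 7.22 and 4.13 CPM in wild-type isotype. Kif23, a motor of the midzone, was at 1.61, 2.13 and 0 CPM on anti-CD40L, against 3.23, 1.52 and 2.29 CPM in wild-type isotype. Tpx2, a spindle assembly factor, was at 1.08, 0.304 and 3.25 CPM on anti-CD40L, against 0.448, 0.855 and 1.03 CPM in wild-type isotype. Anti-CD40L replicate 3 was the extreme library in Kif23 and Tpx2. Without it the log2 fold change was -0.33 in place of -0.77 for Kif23 and -0.11 in place of 0.84 for Tpx2. Racgap1, a regulator of the contractile ring, lay at 4.93, 5.07 and 7.07 CPM on anti-CD40L and at 4.93, 3.80 and 3.56 CPM in wild-type isotype, with a log2 fold change of 0.45 (SE 0.29).

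Anti-CD40L replicate 3 was also the highest or lowest of the 9 libraries in other genes named above, and their log2 fold changes on anti-CD40L against wild-type isotype were taken again without it. Among the lowest there, Top2a then had 0.39 in place of 0.15, Aurka -0.0020 in place of -0.21, Bub3 -0.03 in place of -0.10, Smc4 -0.15 in place of -0.26 and Ncapg 0.69 in place of 0.32. Among the highest there, Ccna2 had 0.25 in place of 0.37, Foxm1 0.05 in place of 0.09, Mad2l1 0.29 in place of 0.33, Kif11 0.17 in place of 0.21, Racgap1 0.29 in place of 0.45 and Ncaph 0.33 in place of 0.42. Plk4 had 0.46 (SE 0.16; QL test of edgeR, BH-adjusted p = 0.0974) and Bub1b 0.87 (SE 0.29; same test, adjusted p = 0.0884). None of these 13 genes was called with or without the library.

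The second comparison asked what the KO label changed on isotype antibody. None of the 33 tested genes was called, and none of the 11256 genes was (0.0%; QL test of edgeR with BH adjustment). An unadjusted p under 0.05 was reached by 0 of the 33, against 649 of all tested genes (5.77%). DESeq2 and limma-voom called 43 and 38 genes in all, and none of the 33. The median log2 fold change of the 33 was -0.08, and the single values ran from -0.45 for Ndc80 to 0.42 for Cenpe, the motor that carries chromosomes to the spindle equator.

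Without a test, Ndc80, Ncapd2 and Pttg1 lay lower in all KO-labelled libraries than in all wild-type libraries, 9.09% of the 33 against 7.62% of all tested genes. No gene of the 33 lay wholly higher, against 7.61% of all tested genes. Ndc80 was at 4.77, 3.88 and 4.96 CPM in KO-labelled libraries, against 6.18, 6.56 and 5.85 CPM in wild type. Ncapd2, a regulatory subunit of condensin, was at 21.7, 19.3 and 20.7 CPM in KO-labelled libraries, against 27.4, 23.8 and 23.4 CPM in wild type. Pttg1 was at 18, 14.9 and 15.8 CPM in KO-labelled libraries, against 18.9, 21.1 and 19.3 CPM in wild type. In each of the 3 genes the gap between the groups was smaller than the range of the KO-labelled libraries, and the adjusted p was 0.946, 0.881 and 0.895 (QL test of edgeR with BH adjustment).

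Abundant genes bounded the KO difference most closely. Bub3 was at 144, 135 and 128 CPM in KO-labelled libraries, against 145, 169 and 141 CPM in wild type, a log2 fold change of -0.16 (SE 0.10; QL test of edgeR, BH-adjusted p = 0.902). Smc4 was at 355, 408 and 509 CPM in KO-labelled libraries, against 557, 456 and 463 CPM in wild type, a log2 fold change of -0.21 (SE 0.13; same test, adjusted p = 0.917). Cdc25b, Smc2 and Cenpa, which differed on anti-CD40L, had log2 fold changes of -0.08 (SE 0.21), 0.10 (SE 0.13) and -0.18 (SE 0.17) here. For genes near 1 CPM, such as Plk1, Tpx2 and Spc25, the SE was 0.58 to 0.76, and only large differences could have been seen.

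The third comparison set anti-CD40L wild-type libraries against KO-labelled isotype libraries, which differ in antibody and genotype at once, and its contrast is the difference between the first 2. It shares the anti-CD40L libraries with the first comparison, so its values are not independent of those above. Of the 33 genes, 1 fell and none rose, 3.03% of them, while 6.83% of all tested genes were called, 5.04% as lower and 1.79% as higher. Cdc25b was at 6.09, 13.7 and 8.03 CPM on anti-CD40L, against 30.6, 33.8 and 30.7 CPM in KO-labelled libraries. It was 3.4-fold lower on anti-CD40L, a log2 fold change of -1.76 (SE 0.23; QL test of edgeR, BH-adjusted p = 0.000559), and was called in all 15 alternatives.

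Cenpa and Smc2 lay on the same side as before and missed the threshold. Cenpa was at 10.8, 10.3 and 12.2 CPM on anti-CD40L, against 18.2, 14.1 and 16.4 CPM in KO-labelled libraries, a log2 fold change of -0.55 (SE 0.18; QL test of edgeR, BH-adjusted p = 0.0839). Smc2 was at 64.4, 60.0 and 62.5 CPM on anti-CD40L, against 39.3, 46.9 and 51.4 CPM in KO-labelled libraries, a log2 fold change of 0.44 (SE 0.13; same test, adjusted p = 0.0582). Plk4 had a log2 fold change of 0.53 (SE 0.17; same test, adjusted p = 0.0788). Smc2 was called in 5 of the 15 alternatives and Plk4 in 2, so both sat at the edge of the test.

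Of the 33 genes, 7 lay wholly above on anti-CD40L (21.2%, against 10.3% of all tested genes), namely Foxm1, Plk4, Bub1b, Mad2l1, Kif11, Smc2 and Ncaph. Cdc25b, Cenpa, Ndc80 and Kif23 lay wholly below (12.1%, against 15.9%). The highest log2 fold change was 0.93 (SE 0.74) for Tpx2, and without anti-CD40L replicate 3 that value was -0.03 (SE 0.64). The median of the 33 was 0.06 and moved between -0.02 and 0.14 as single libraries were left out.

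The summed level of the 50 genes was 841 ± 60.5 CPM on anti-CD40L, 839 ± 81.4 CPM in KO-labelled libraries and 930 ± 61.3 CPM in wild-type isotype (SD, n = 3 each). The ranges were 777 to 896 CPM on anti-CD40L, 766 to 927 CPM in KO-labelled libraries and 889 to 1001 CPM in wild-type isotype, and all 3 overlapped in part. Smc4 and Bub3 set most of this spread. Without them the sums were 283 to 294 CPM on anti-CD40L, 267 to 289 CPM in KO-labelled libraries and 277 to 299 CPM in wild-type isotype. In bulk RNA, fewer cells in mitosis and less RNA of a gene per cell cannot be told apart.

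The 123 other mitosis genes, of which 111 were tested, were also mostly not called. On anti-CD40L against wild-type isotype 3 rose and 1 fell, with a median log2 fold change of 0.11. The risers were Gtse1, a G2 regulator bound to microtubules, Wee1, the kinase that restrains Cdk1, and Ckap5, a microtubule polymerase. Gtse1 was at 26.3, 28.1 and 36.7 CPM on anti-CD40L, against 16.7, 14.4 and 13.3 CPM in wild-type isotype (log2 fold change 1.02, SE 0.22; QL test of edgeR, BH-adjusted p = 0.0125). Wee1 averaged 18.8 ± 4.54 CPM on anti-CD40L and 10.6 ± 1.04 CPM in wild-type isotype (adjusted p = 0.0408, same test), and Ckap5 averaged 165 ± 3.89 CPM on anti-CD40L and 131 ± 8.57 CPM in wild-type isotype (adjusted p = 0.0327, same test). Numa1, which anchors microtubules at the spindle poles, fell, at 221 ± 4.59 CPM on anti-CD40L and 299 ± 17.6 CPM in wild-type isotype (adjusted p = 0.00702, same test).

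The calls of Wee1 and Ckap5 were each lost when any of 6 libraries was left out (anti-CD40L replicate 1 or 2, KO replicate 2 or any wild-type isotype library), with adjusted p of up to 0.15 and 0.139. That of Gtse1 was lost without wild-type isotype replicate 2 (adjusted p = 0.0516) or 3 (adjusted p = 0.0615), while that of Numa1 held in all 15 alternatives. Wee1 restrains the step that Cdc25b promotes, and the 2 genes moved in opposite directions on anti-CD40L. Whether the 2 changes are linked was not tested. None of the 14 tested cohesin genes, the 18 anaphase-promoting complex genes, the 16 inner kinetochore genes or the 8 centrosome genes was called in any comparison.

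Against the KO-labelled libraries, 2 of the 111 rose on anti-CD40L, Gtse1 and the Cdk-binding Cks2, and 2 fell, Numa1 and Kif15. Cks2 averaged 20.4 ± 1.59 CPM on anti-CD40L and 13.5 ± 1.32 CPM in KO-labelled libraries (QL test of edgeR, BH-adjusted p = 0.046), and its call was lost without any single one of 7 libraries, all but anti-CD40L replicate 3 and wild-type isotype replicate 1 (adjusted p of up to 0.15), and in the 2-group fit (adjusted p = 0.0743). Without KO replicate 2 the calls of Gtse1 (adjusted p = 0.0895) and Numa1 (adjusted p = 0.0595) were lost as well. Kif15, a spindle motor, was at 28.9, 26.9 and 31.1 CPM on anti-CD40L, against 60.4, 44.7 and 70.9 CPM in KO-labelled libraries (log2 fold change -1.02, SE 0.15; QL test of edgeR, BH-adjusted p = 0.0015), and the call held in all 15 alternatives. Wild-type isotype libraries were at 34.6, 32.8 and 37.9 CPM, so the KO-labelled libraries stood above both wild-type groups. The log2 fold change of the KO-labelled libraries against wild-type isotype was 0.74 (SE 0.15; same test, adjusted p = 0.282), and the alternatives ran from 7.91e-05 to 1.00, with calls by DESeq2 and without the filter.

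Replication and G1 genes were counted beside the mitotic ones. Of 42 DNA replication genes, 3 rose on anti-CD40L against wild-type isotype (Dut, Rrm1 and Prim1) and Rpa1 fell, with a median log2 fold change of 0.29. Dut, which clears dUTP, was at 49.5, 42.5 and 45.3 CPM on anti-CD40L, against 32.6, 31.7 and 28.3 CPM in wild-type isotype (log2 fold change 0.57, SE 0.13; QL test of edgeR, BH-adjusted p = 0.0191). Rrm1, the large subunit of ribonucleotide reductase, averaged 93.8 ± 8.55 CPM on anti-CD40L and 72.2 ± 3.35 CPM in wild-type isotype (adjusted p = 0.0229, same test). Rpa1, which coats single-stranded DNA, averaged 132 ± 1.54 CPM on anti-CD40L and 168 ± 2.15 CPM in wild-type isotype (adjusted p = 0.0214, same test). The calls of Dut and Rpa1 were each lost without anti-CD40L replicate 1 or any wild-type isotype library (adjusted p of up to 0.0914 and 0.0858), and that of Rrm1 without anti-CD40L replicate 1 or wild-type isotype replicate 1 or 3 (up to 0.0959).

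Log2 fold changes were above 0 for 37 of the 42 replication genes, against 18 of the 33 mitotic genes and 5424 of the 11256 tested genes. Against the KO-labelled libraries, the helicase subunit Mcm6 and the clamp loader subunit Rfc1 rose on anti-CD40L, and the median of the 42 was 0.30. Mcm6 averaged 282 ± 8.31 CPM on anti-CD40L and 230 ± 6.98 CPM in KO-labelled libraries (log2 fold change 0.29, SE 0.07; QL test of edgeR, BH-adjusted p = 0.0204), and Rfc1 averaged 99.6 ± 9.51 CPM on anti-CD40L and 79.9 ± 3.31 CPM in KO-labelled libraries (adjusted p = 0.0487, same test). The call of Mcm6 was lost without anti-CD40L replicate 1 or KO replicate 1 or 2 (adjusted p of up to 0.0788) and in the 2-group fit (adjusted p = 0.0628). That of Rfc1 was lost without any of 7 libraries, all but anti-CD40L replicate 3 and KO replicate 3 (up to 0.166), in the 2-group fit (adjusted p = 0.105) and without the filter (adjusted p = 0.0521).

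Of 19 G1 genes, 2 rose on anti-CD40L against wild-type isotype (Cdk6 and Ccnd2) and 4 fell (Cdkn1b, Cdkn2d, Rbl2 and Ccnd3). Cdkn1b, the inhibitor p27, was at 23.7, 25.1 and 17.0 CPM on anti-CD40L, against 71.8, 58.6 and 67.3 CPM in wild-type isotype and 59.7, 55.1 and 55.8 CPM in KO-labelled libraries. It fell against both (log2 fold change -1.57, SE 0.14, adjusted p = 4.09e-05 and -1.35, SE 0.14, adjusted p = 8.48e-05; QL test of edgeR with BH adjustment), and both calls held in all 15 alternatives. Cdk6, a G1 kinase, averaged 140 ± 35.7 CPM on anti-CD40L and 84.6 ± 6.84 CPM in wild-type isotype (adjusted p = 0.0141, same test). Cdkn2d, the inhibitor p19, averaged 3.77 ± 1.40 CPM on anti-CD40L and 8.79 ± 1.54 CPM in wild-type isotype (adjusted p = 0.0275, same test). The call of Cdk6 was lost without anti-CD40L replicate 1 (adjusted p = 0.0516) or wild-type isotype replicate 2 (adjusted p = 0.067). That of Cdkn2d was lost without anti-CD40L replicate 1, KO replicate 2 or wild-type isotype replicate 1 or 3 (up to 0.114).

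Some markers of other cell types fell on anti-CD40L against wild-type isotype. Of the summed levels of these cell types, only that of natural killer cell markers did not overlap between these 2 groups. Fcer2a was among the B cell markers that fell on anti-CD40L against wild-type isotype, and the summed level of 7 such markers was 1.72 to 11.5 CPM on anti-CD40L, 4.83 to 15.5 CPM in KO-labelled libraries and 11.1 to 33.3 CPM in wild-type isotype. Of 5 natural killer cell markers, Prf1 fell, with sums of 0.764 to 5.17 CPM on anti-CD40L, 8.27 to 16.1 CPM in KO-labelled libraries and 10.5 to 11.7 CPM in wild-type isotype, while Ncr1 and Klrb1c were at or near 0 throughout. Of 7 myeloid markers, Itgam and Fcgr3 fell, and Cd14, Csf1r and Adgre1 were at or near 0 in every library. The summed level of the 7 was 20.45 to 24.44 CPM on anti-CD40L and 23.86 to 31.81 CPM in wild-type isotype, which overlapped. In KO-labelled libraries this sum was 21.95 to 34.03 CPM. CD8 T cell markers summed to 6.27 to 10.5 CPM on anti-CD40L, 7.61 to 11.9 CPM in KO-labelled libraries and 7.32 to 11.1 CPM in wild-type isotype, and erythroid markers to at most 2.03 CPM in any library. The part of these cells in the values of Cdc25b, Cenpa and Smc2 was not tested.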

How the data were processed

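Libraries of 9 mouse CD4+ T cell samples were, per the labels, prepared with a KAPA mRNA HyperPrep kit. The deposited table held raw, unscaled expected counts with 1 row per RefSeq transcript; all values of the 42361 rows were multiples of 0.5, as tested on the table, so they were read as fractional counts. The submitters' processing notes name CASAVA 1.8.2, HISAT2 2.1.0 and build mm10. The counter, its use of strand and its treatment of reads that align to several places are not given in the sources used.

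Symbols came from the RefSeq table of GRCm38.p6 (42203 rows) and GENCODE vM21 (65), and 93 rows had none. The transcript row of highest total was kept for each of 25160 genes, and fractions were rounded up. The test had been planned for whole counts and was run on these rounded values. The filterByExpr function of edgeR, by group, left 11256 genes. The quasi-likelihood (QL) F test from edgeR 4.0.16 (R 4.3.3, robust, TMM scaling, common biological coefficient of variation 0.127) was fitted over the 9 libraries with a term for each group, with Benjamini-Hochberg adjustment over all tested genes at 0.05. Levels are CPM over TMM-scaled library sizes; a fold change is the fitted value, and groups are called not overlapping where every library of one lies beyond every library of the other. Total counts, 5316482 to 15565711 per library, set the precision.

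DESeq2 1.42.0, limma-voom 3.58.1 with quality weights, RLE scaling (the median-ratio size factors), no filter, 2-group fits, a replicate block and leaving out each library were the 15 alternatives. The fit was tested on simulated counts with known changes, once for each of the 3 comparisons. It recovered 46.9% to 53.1% of 1.5-fold changes, 69.5% to 77.4% of 2-fold changes and 90.5% to 94.3% of 4-fold changes. Unchanged genes made up 3.87% to 9.7% of the simulated calls, the most for KO-labelled against wild-type isotype. The result of 1 marker gene is not reported here. The genes, the comparison lists and the naming rule were chosen with earlier results of these data known. The rule named called genes, the 4 smallest p and the extreme fold changes per comparison, 20 preset genes, and called genes of the other lists, up to 5 per direction for mitosis genes and 3 for the rest; Ccnd2, Ccnd3, Rbl2 and Prim1 are named outside it to complete counts, and other genes for their role or for a library that stood apart, after their values were seen.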

Additional observations from a re-analysis of the deposited data

How the results depend on the processing

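With the alternatives one at a time, Cdc25b kept its call on anti-CD40L against wild-type isotype and against the KO-labelled libraries in all 15. Of 1528 pairs of a named value and an alternative, 1430 kept their side of the threshold, 64 lost a call, 34 gained one and none turned a called value round. The cause of these shifts was not tested. The pairs include values that the main fit did not call, among them all those of KO-labelled against wild-type isotype libraries. Such values could not lose a call, so the 1430 do not measure how well the called values held. Alternatives on the comparison lists were chosen after seeing the data.

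On anti-CD40L against wild-type isotype, DESeq2 called 5 of the 50 genes in place of 3, 12 other mitosis genes in place of 4, 11 replication genes in place of 4 and 1593 genes in all in place of 1055. Without the filter these were 15 other mitosis genes, 10 replication genes and 1698 genes in all; with limma-voom 13 other mitosis and 13 replication genes; and with the 2-group fit 7 other mitosis genes. For the KO-labelled libraries against wild type, where the main count was 0, DESeq2 and the fit without a filter called 1 other mitosis gene each. Over all genes they called 43 and 102, limma-voom 38 and the 2-group fit 3, and the median of the tested mitotic genes, -0.083, was -0.033 with limma-voom and -0.022 with the 2-group fit. On anti-CD40L against the KO-labelled libraries, DESeq2, no filter and limma-voom each called 3 of the 50 genes in place of 1. In the same order they called 8, 10 and 12 other mitosis genes in place of 4, 8, 7 and 10 replication genes in place of 2, 3, 3 and 4 G1 genes in place of 1, and 1173, 1305 and 1458 genes in all in place of 769. The 2-group fit called 0 replication genes and 481 genes in all.

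Leaving out 1 library at a time gave, for the first comparison, 1 to 4 of the 50 genes, 1 to 8 other mitosis genes, 0 to 10 replication genes, 1 to 6 G1 genes and 486 to 1342 genes in all, with medians of -0.05 to 0.13. The lowest totals came without anti-CD40L replicate 1 (486) and without wild-type isotype replicates 1 (495), 2 (545) and 3 (530); only 1 of the 50 genes was called without anti-CD40L replicate 1 or wild-type isotype replicate 2. For the second it gave 0 genes of each list and 0 to 2 genes in all, with medians of -0.084 to -0.016. For the third it gave 1 to 2 of the 50 genes, 1 to 7 other mitosis genes, 0 to 5 replication genes, 1 G1 gene and 346 to 1022 genes in all, with medians of -0.02 to 0.14. The lowest totals there came without KO replicates 1 (447) and 2 (346) and without anti-CD40L replicate 1 (448); 2 of the 50 genes were called without KO replicate 3 or wild-type isotype replicate 2.

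The labels do not say whether equal replicate numbers pair the samples. Deviations from the group means correlated at 0.18, 0.08 and 0.08 for equal numbers on anti-CD40L and wild-type isotype. For equal numbers they correlated at -0.11, -0.01 and -0.05 for KO and wild-type isotype, and at -0.15, 0.06 and -0.05 for anti-CD40L and KO. On anti-CD40L and wild-type isotype every sample correlated best with its own number, a hint from the data and not the design. For KO and wild-type isotype this held for no sample, and for anti-CD40L and KO only for replicate 2 of each. With the replicate block 3, 0 and 1 of the 50 genes and 954, 0 and 664 genes in all were called in the 3 comparisons, with 3, 0 and 4 other mitosis genes, and 1 replication gene in place of 2 in the third. Under the block Wee1 (adjusted p = 0.0668) and Ckap5 (0.0543) were not called in the first comparison, nor Cks2 (0.0764) and Rfc1 (0.0825) in the third (QL test of edgeR). Depth limits the 17 untested genes, none with over 27 counts in a library.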
